A study of Mus musculus with 6 samples.

Results

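The miR-199 and miR-214 microRNAs (miRNAs, short RNAs that silence messenger RNAs) were measured by small RNA sequencing of mouse pancreas with pancreatitis. They were taken by name: mmu-miR-199a-3p, mmu-miR-199a-5p, mmu-miR-199b-3p, mmu-miR-199b-5p, mmu-miR-214-3p and mmu-miR-214-5p (written below without mmu, for mouse), which are 6 of the 1077 mature miRNAs in the count table. All 6 passed the filter on low counts. Because miR-199a-3p and miR-199b-3p had the same count in every library, they made 5 distinct measurements. Every library came from mouse pancreas with pancreatitis, with 3 libraries from mice with high blood triglycerides (titled HTG, and called HTG below) and 3 from control mice that had pancreatitis without high triglycerides. The sources used here do not give the mouse strain, sex and age, the agent that caused the pancreatitis or the means by which triglycerides were raised. Nothing in the labels ties a library to its own animal, and the p-values below therefore reflect spread among libraries that could be technical in part.

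The miR-199 and miR-214 hairpins are known as miRNAs of mesenchymal cells, the fibre-forming and supporting cells of a tissue. In the pancreas these include the stellate cells, which turn into matrix-producing cells after injury. A hairpin is cut into a 5p and a 3p strand, and bases 2 to 8 of each strand, the seed, pair with target messenger RNAs, so strands of 1 hairpin have different targets. One copy of miR-199a and miR-214 are cut from the same noncoding transcript, Dnm3os, which is made from the strand opposite to the dynamin gene Dnm3. In other organs miR-199a and miR-214 are known from fibrosis.

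The mature sequences show which members the reads can tell apart. They are those of RefSeq on GRCm38.p6, 5′ to 3′, with the seed in capitals.
miR-199a-3p: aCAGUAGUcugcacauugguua
miR-199b-3p: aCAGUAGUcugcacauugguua
miR-199a-5p: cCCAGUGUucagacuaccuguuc
miR-214-3p: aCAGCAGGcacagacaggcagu
miR-214-5p: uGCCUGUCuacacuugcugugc
The mature sequence of miR-199b-5p is not printed. The 3p strands of miR-199a and miR-199b were the same in 22 of 22 bases, so a read of this sequence can come from either, and they are treated below as 1 measurement. Compared position by position from the 5′ end, the 3p strands of miR-199a and miR-214 had 5 of 7 seed bases but 8 of 22 bases in common. The 5p strands of the same hairpins shared 1 of 7 seed bases. Among the mature miRNAs of the RefSeq table, the 3p seed of miR-214 was also that of miR-761, which is not analysed here.

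The hairpins show how many genes stand behind each strand. They are printed 5′ to 3′, with the strands that the RefSeq table annotates as mature in capitals.
Mir199a-1: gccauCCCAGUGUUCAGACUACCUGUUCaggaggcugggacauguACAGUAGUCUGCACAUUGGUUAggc
Mir199a-2: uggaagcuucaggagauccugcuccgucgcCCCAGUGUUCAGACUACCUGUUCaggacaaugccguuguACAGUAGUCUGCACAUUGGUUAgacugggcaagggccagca
Mir199b: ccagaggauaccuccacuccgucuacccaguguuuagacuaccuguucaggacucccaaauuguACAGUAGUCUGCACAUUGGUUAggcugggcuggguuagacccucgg
Mir214: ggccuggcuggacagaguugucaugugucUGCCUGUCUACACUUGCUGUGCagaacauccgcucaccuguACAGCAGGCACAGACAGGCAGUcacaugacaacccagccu
Mir199a-1 lies on chromosome 9 from 21496495 to 21496564 (- strand), in an intron of Dnm2 but on the strand opposite to it. Mir199a-2 lies on chromosome 1 from 162217814 to 162217923 (+ strand) and Mir214 from 162223368 to 162223477 (+ strand), 5444 bases further on. Both lie in an exon of Dnm3os and, on the opposite strand, in an intron of Dnm3, by the GENCODE M21 annotation of GRCm38. Mir199b lies on chromosome 2 from 32318460 to 32318569 (+ strand), in an intron of Dnm1 and again on the opposite strand. The shared 3p strand can thus come from 3 hairpins on 3 chromosomes, miR-199a-5p from 2, and each miR-214 strand from 1. Levels of the shared 3p strand and of miR-199a-5p are therefore sums over loci that the counts cannot separate.

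Library totals ranged from 6514498 to 19773579 counts. Levels are given as CPM, a count scaled to the library total and divided by the TMM (trimmed mean of M-values) factor of the library, with no length term. Of 9 leukocyte miRNAs listed, HTG 1 was the highest HTG library for every one, while control 1 was high in some and not in others. The level of miR-142a-5p was 1236 CPM in control 1 and 2204 CPM in HTG 1, against 169 to 473 CPM in the other 4 libraries. A lymphocyte miRNA, miR-150-5p, was at 797 CPM in control 1 and 1726 in HTG 1, against 46.2 to 103 in the other 4 libraries. For miR-223-3p, a miRNA of myeloid cells and the most abundant listed, control 1 was the lowest of the 6 libraries at 663 CPM. In HTG 1 miR-223-3p was at 993 CPM, the highest of the HTG libraries but below controls 2 and 3. The summed level of 9 leukocyte miRNAs was 3643 CPM in control 1, within the control range of 2645 to 4791 CPM, and 6603 CPM in HTG 1, the highest of an HTG range that began at 1294 CPM. The acinar miRNAs that should mark pancreas were abundant in all 6 libraries. Their summed level was 327615 CPM at the lowest, in HTG 1, of which miR-148a-3p made up 298081 CPM. In the same library miR-217-5p was at 10504 CPM, its lowest of the 6. A read spans a whole mature strand, so CPM values of the 5 strands need no length term to be set side by side, although differences between strands in adapter ligation and PCR copying were not tested.

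None of the miR-199 and miR-214 strands passed the test between HTG and control pancreatitis. With edgeR's quasi-likelihood test and Benjamini-Hochberg adjustment over the 488 tested miRNAs, 0 of the 5 distinct members were called higher and 0 lower (threshold 0.05), and over all tested miRNAs 0% were called. At an unadjusted p under 0.05 edgeR gave 0 of the 5, against 2.46% of all tested, and DESeq2, limma-voom and limma on the deposited TPM also gave 0 of the 5. The groups overlapped for each of the 5, while 7.99% of all tested miRNAs had groups that did not overlap. The fitted log2 fold change was below 0 for 4 of the 5, with a median of -0.09, and below 0 for 51% of all tested miRNAs, whose median was -0.01. No cell type was isolated from the tissue, so the number of mesenchymal cells and the amount of a miRNA per cell cannot be told apart.

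The 5 strands kept 1 order of level in 6 of 6 libraries. The shared 3p strand of miR-199 was highest, followed by miR-199a-5p, miR-199b-5p, miR-214-3p and miR-214-5p. No neighbours in this order overlapped: the lowest library of miR-199a-3p stood at 1909 CPM and the highest of miR-199a-5p at 475 CPM, and the closest pair was miR-199b-5p, with a lowest level of 93.6 CPM, and miR-214-3p, with a highest of 62.6 CPM. By mean level they ranked 48th, 89th, 144th, 185th and 309th of the 488 tested miRNAs. Together they held 0.287% ± 0.0437 of the control counts and 0.263% ± 0.0551 of the HTG counts (SD, n = 3 each), the shared strand counted once. Their summed level was 2530, 2874 and 3017 CPM for controls 1, 2 and 3, and for HTG 1, 2 and 3 it was 2740, 2535 and 2640 CPM. The 3 HTG values lay within the range of the control values.

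**Figure D1:**
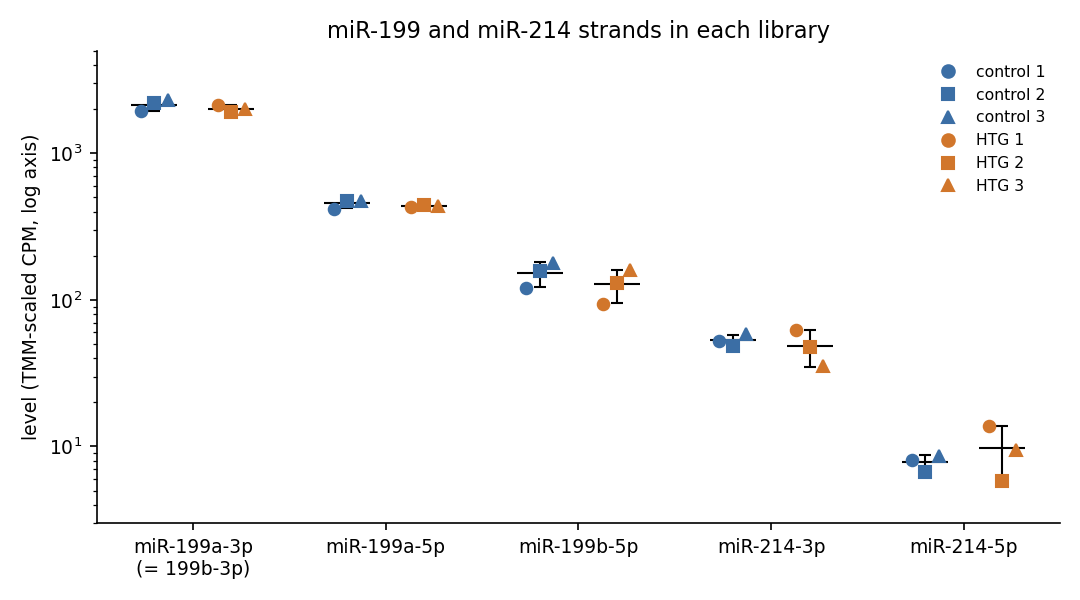
Level of the 5 distinct miR-199 and miR-214 strands in each library (vertical axis, TMM-scaled CPM on a log axis), with controls in blue, HTG in orange, the mark giving the library number, and black bars for the mean ± SD of 3 libraries. The order of the strands is the same in 6 of 6 libraries, from about 2078 CPM for miR-199a-3p to 8.75 CPM for miR-214-5p, and the colours overlap for every strand.

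The shared 3p strand of miR-199, known in human liver cancer cells to repress MTOR and MET, was the steady and dominant product of the family. Controls 1, 2 and 3 had 16983, 18968 and 50393 counts of it, and HTG 1, 2 and 3 had 16562, 30974 and 18621. As levels these were 1930, 2187 and 2302 CPM for the controls, against 2138, 1909 and 2002 CPM for the HTG libraries. Control 1 and HTG 2 were the lowest libraries, control 3 was the highest, and the highest exceeded the lowest 1.21-fold. The means were 2140 ± 191 and 2016 ± 115 CPM (SD, n = 3 each). The log2 fold change of HTG over control was -0.09 ± 0.14 (SE; adjusted p = 0.996 in edgeR). Its 95% confidence interval ran from -0.42 to 0.25, that is from 0.749-fold to 1.19-fold.

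The strand miR-199a-5p, known in human lung fibroblasts to repress the caveolin gene CAV1, varied least of the 5. Controls 1, 2 and 3 stood at 419.8, 475 and 470.4 CPM, and HTG 1, 2 and 3 at 432, 441 and 434 CPM. The HTG libraries, at 436 ± 4.81 CPM, lay between control 1 and the other 2 controls, whose group stood at 455 ± 30.7 CPM (SD, n = 3 each). The log2 fold change was -0.06 ± 0.14 (SE), with a 95% confidence interval from -0.39 to 0.27 (adjusted p = 0.996 in edgeR). Within groups, the pooled SD of the log2 level was 0.071 for miR-199a-5p and 0.109 for miR-199a-3p, against a median of 0.343 over all tested miRNAs.

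Of the strands of Mir199b, the hairpin in Dnm1, miR-199b-5p alone has counts that differ from those of its miR-199a counterpart; in mouse heart it is known to repress Dyrk1a. It was at 119.995, 157 and 177 CPM in controls 1, 2 and 3 and at 93.6, 131 and 159 CPM in HTG 1, 2 and 3. In both groups the library numbered 1, with the raised miR-150-5p, was the lowest and number 3 the highest; the part of leukocytes in these values was not tested. The means were 151 ± 29.0 and 128 ± 32.7 CPM (SD, n = 3 each), and the log2 fold change was -0.25 ± 0.24 (SE; 95% confidence interval -0.81 to 0.32; adjusted p = 0.996 in edgeR). Without both libraries numbered 1 it was -0.11 ± 0.17 (adjusted p = 0.826), and without HTG 1 alone -0.03 ± 0.20 (adjusted p = 0.971).

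Of the strands of Mir214, which shares the Dnm3os transcript with Mir199a-2, the more abundant was miR-214-3p, known to repress the matrix gene Ccn2 in mouse liver stellate cells. It had 459, 420 and 1274 counts in control and 485, 780 and 329 in HTG, or 52.2, 48.4 and 58.2 CPM and 62.6, 48.1 and 35.4 CPM. The highest and the lowest library were both from HTG, and the controls lay between them. The log2 fold change was -0.12 ± 0.23 (SE; 95% confidence interval -0.66 to 0.41; adjusted p = 0.996 in edgeR). Its sign turned without HTG 3 (0.06 ± 0.22, adjusted p = 0.997), and without both libraries numbered 1 it was -0.26 ± 0.20 (adjusted p = 0.590).

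The opposite strand, miR-214-5p, was the rarest member and the one with a fold change above 0. Its counts were 71, 58 and 189 in control and 107, 95 and 88 in HTG, giving 8.07, 6.69 and 8.63 CPM and 13.8, 5.86 and 9.46 CPM. HTG 1 and 3 lay above the controls and HTG 2 below them. The means were 7.80 ± 1.001 and 9.71 ± 3.99 CPM (SD, n = 3 each), with a log2 fold change of 0.31 ± 0.36 (SE; 95% confidence interval -0.54 to 1.15; adjusted p = 0.996 in edgeR). Without HTG 1 the value was -0.0024 ± 0.32 (adjusted p = 0.997), and without both libraries numbered 1 it was 0.07 ± 0.34 (adjusted p = 0.952).

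**Figure D2:**
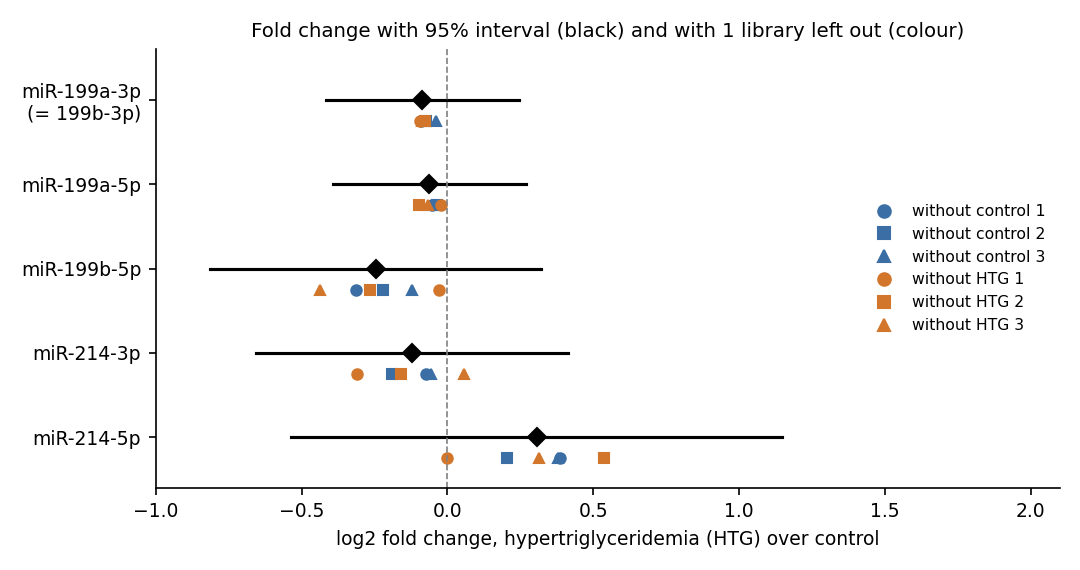
Log2 fold change of HTG over control for each strand (black diamond) with its 95% confidence interval from edgeR (black line), and the same value with 1 library left out (coloured marks, 1 for each of the 6 libraries). All intervals cross 0; the marks for miR-199a-3p and miR-199a-5p stay close together, while those for miR-214-5p run from -0.0024 to 0.54.

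Strand use was then compared within libraries, where no scaling is needed. Ratios of counts were taken on a log2 scale with 0.5 added to each count, and 7 ratios were tested by an exact two-sided permutation test, whose smallest p with 3 against 3 libraries is 0.1. Adjusted over the 7 ratios, 0 passed, the smallest adjusted p being 0.933, and the groups overlapped for each ratio.

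The balance of the miR-199 strands varied little between libraries. The 3p strand exceeded miR-199a-5p 4.60-fold, 4.60-fold and 4.89-fold in controls 1, 2 and 3 and 4.95-fold, 4.33-fold and 4.61-fold in HTG 1, 2 and 3. The log2 ratio of miR-199a-5p to the 3p strand differed by 0.02 between the group means (-2.23 ± 0.05 in control, -2.21 ± 0.10 in HTG, SD, n = 3 each; exact permutation p = 1). The highest and the lowest ratio were both from HTG libraries.

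The counts of the 5p strands of miR-199a and miR-199b did not keep 1 ratio. How cleanly they separate was not tested: miR-199a-5p differs from the closest stretch of the Mir199b hairpin in 1 of 23 bases, and the mismatch limit of the mapping is not given in the sources used here. Of the 5p reads, miR-199b-5p took 22.2% in control 1 (95% Wilson interval 21.1 to 23.4), 24.8% in control 2 (23.7 to 26.0) and 27.4% in control 3 (26.6 to 28.1). In HTG 1, 2 and 3 the shares were 17.8% (16.7 to 19.0), 22.8% (21.99 to 23.7) and 26.8% (25.6 to 27.95). Libraries within a group thus differed by more than counting error, and the group means, 24.8% ± 2.57 and 22.5% ± 4.49 (SD, n = 3 each), by less than that spread. Within same-numbered libraries the share was lower in HTG in 3 of 3 pairs, and so was the level of miR-199b-5p, a linked value. The levels of the other members and the other shares compared in this way had mixed directions. The labels state no pairing, and in the data only the libraries numbered 1 stood apart as a pair. The log2 ratio of miR-199a-5p to miR-199b-5p was 0.20 higher in HTG (exact permutation p = 0.6; taken as pairs, exact p = 0.25, the smallest that 3 pairs allow). Without HTG 1 the difference was -0.0005. Such intervals hold for counting error alone, because PCR copies of a molecule are counted as separate reads.

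For miR-214 the 5p strand took a low and less even share. It was 13.4% (95% Wilson interval 10.8 to 16.6), 12.1% (9.505 to 15.4) and 12.9% (11.3 to 14.7) of the miR-214 reads in controls 1, 2 and 3. In HTG 1, 2 and 3 it was 18.1% (15.2 to 21.4), 10.9% (8.96 to 13.1) and 21.1% (17.5 to 25.3). The intervals of the 3 controls overlapped each other, whereas the interval of HTG 2 lay below those of HTG 1 and 3, so 1 library of the group went against the other 2. The log2 ratio of miR-214-5p to miR-214-3p was -2.76 ± 0.08 in control and -2.37 ± 0.59 in HTG (SD, n = 3 each; exact permutation p = 0.4). With 1 library left out the difference ran from 0.16 to 0.72.

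**Figure D3:**
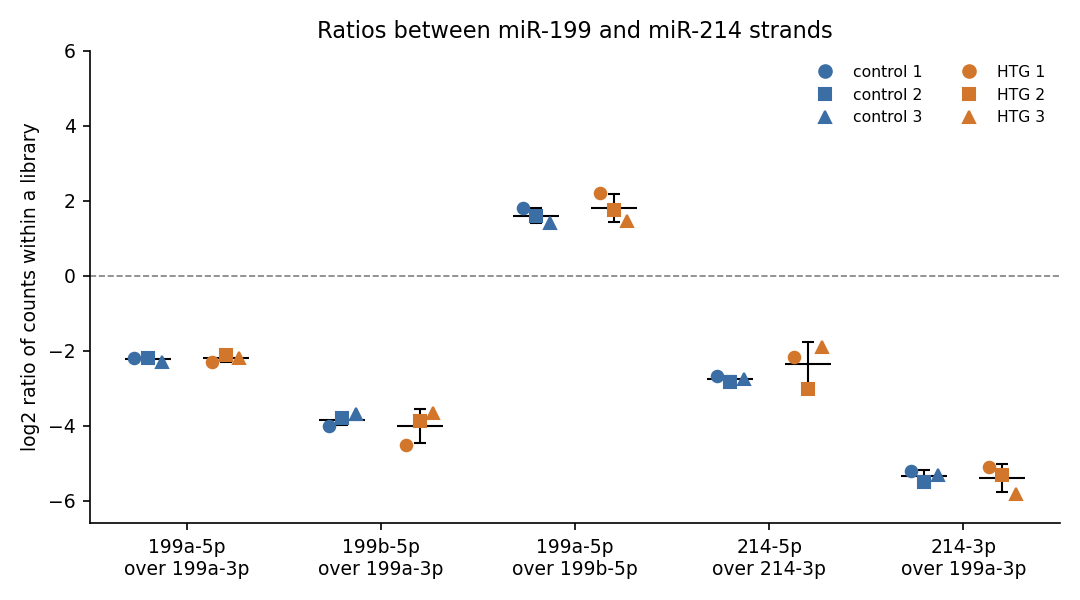
Log2 ratio of counts between strands within each library (vertical axis), with controls in blue, HTG in orange and black bars for the mean ± SD of 3 libraries. The ratio of miR-199a-5p to miR-199a-3p stays between -2.31 and -2.11, while that of miR-214-5p to miR-214-3p runs from -3.03 to -1.90 in HTG and from -2.85 to -2.68 in control.

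The products of the shared Dnm3os transcript were compared through miR-214-3p and the 3p strand of miR-199, with the limit that the latter also comes from Mir199a-1 and Mir199b. The 3p strand of miR-199 exceeded miR-214-3p 37.0-fold, 45.2-fold and 39.6-fold in control and 34.1-fold, 39.7-fold and 56.6-fold in HTG. HTG 1 had the lowest excess and HTG 3 the highest, on both sides of the controls. The log2 ratio of miR-214-3p to the miR-199 3p strand differed by -0.07 (exact permutation p = 0.8).

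The start of Dnm3os is shown because 2 of the hairpins, Mir199a-2 and Mir214, lie in this transcript. The sequence is RefSeq's on GRCm38.p6, chr1:162217373-162217672 (+ strand), from 250 bases before the gene start to 50 after it. Capitals mark matches to the E-box CANNTG, which basic helix-loop-helix factors such as the mesenchymal factor Twist1 bind, and to the CArG box, which serum response factor binds.
Dnm3os: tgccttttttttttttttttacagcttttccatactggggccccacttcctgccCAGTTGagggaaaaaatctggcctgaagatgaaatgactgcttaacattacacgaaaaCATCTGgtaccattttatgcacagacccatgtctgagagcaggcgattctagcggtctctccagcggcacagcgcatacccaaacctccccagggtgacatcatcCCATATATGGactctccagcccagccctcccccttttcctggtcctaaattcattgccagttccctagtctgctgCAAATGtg
There were 3 E-boxes, starting 196 and 138 bases before and 42 bases after the gene start, and 1 CArG box, starting 33 bases before it. Each motif is its own reverse complement, so a match on 1 strand is a match on both, and no match overlapped another. Of 32851 promoters of the same length, 72.3% held an E-box and 1.63% a CArG box. A match describes the sequence and does not show that a factor bound.

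Other miRNAs of mesenchymal cells were read from the same fit for comparison. Of 16 other miRNAs listed for mesenchymal cells, 0 passed in edgeR in either direction, as over all tested miRNAs (0%). At an unadjusted p under 0.05 there was 1, miR-125b-5p, beside 2.46% of all tested. The fitted log2 fold change was below 0 for all 16, with a median of -0.22, beside 51% and -0.01 over all tested. The 16 are not independent, since they include both strands of the miR-143, miR-145a and miR-140 hairpins. They also include miRNAs of 1 family, such as miR-10a-5p with miR-10b-5p and miR-125a-5p with miR-125b-5p. The smooth muscle miRNA miR-143-3p had a log2 fold change of -0.45 ± 0.52 (SE; adjusted p = 0.996 in edgeR) and miR-125b-5p, abundant in mesenchymal cells, -0.53 ± 0.19 (adjusted p = 0.996). The most abundant miRNAs of the list beside miR-143-3p had log2 fold changes of -0.07 ± 0.14 for miR-99a-5p, -0.14 ± 0.15 for let-7c-5p and -0.02 ± 0.16 for miR-152-3p. The miR-199 3p strand was also set against miR-125b-5p and miR-143-3p through ratios. These partners were chosen with earlier results of these data known, and the ratio to miR-125b-5p carries that miRNA's own fold change. The log2 ratio of the miR-199 3p strand to miR-125b-5p was -0.31, -0.52 and 0.15 in controls 1, 2 and 3 and 0.25, 0.01 and 0.34 in HTG 1, 2 and 3. Controls 1 and 2 lay below each HTG library and control 3 between HTG 2 and HTG 1, and the means differed by 0.43 (exact permutation p = 0.2, 0.933 adjusted over the 7 ratios). The ratio to miR-143-3p was between -4.86 in control 1 and -2.50 in control 3, so the controls spanned every HTG value (difference 0.17, exact permutation p = 0.8). Its sign turned without control 1 (-0.48) and without both libraries numbered 1 (-0.22).

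Across the 6 libraries the strands had other deviations than miR-143-3p, which was 1.27 above its mean log2 level in control 1 and 0.84 below it in control 3. In the same libraries miR-199a-3p lay at -0.10 and 0.15, and miR-199b-5p at -0.19 and 0.38 around their own means. In HTG 1 the members parted: miR-214-5p lay 0.70 and miR-214-3p 0.32 above their means, miR-199a-3p 0.05 above and miR-199a-5p at -0.04, and miR-199b-5p at -0.54. HTG 3 had the reverse order for miR-214-3p (-0.50) and miR-199b-5p (0.22). By the root mean square difference from the mean pattern of the 5 members over the 6 libraries, the nearest of 294 other miRNAs with a mean of at least 10 CPM were miR-652-3p (0.061 on the log2 scale), miR-186-5p (0.076), miR-26a-5p (0.076), miR-185-5p (0.080) and let-7d-3p (0.082), where the median was 0.266. The members themselves lay 0.043 (miR-199a-3p), 0.097 (miR-199a-5p), 0.221 (miR-214-3p), 0.310 (miR-199b-5p) and 0.332 (miR-214-5p) from their mean pattern, so 2 of the 5 were further from it than the median of other miRNAs. Each member is part of that mean, which draws its own distance down, and the other miRNAs are not. In that order of other miRNAs, miR-125b-5p came 206th (0.336) and miR-143-3p 282nd (0.731). Since the mean pattern of the members itself spanned only -0.15 to 0.17, this measure favours miRNAs that vary little.

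**Figure D4:**
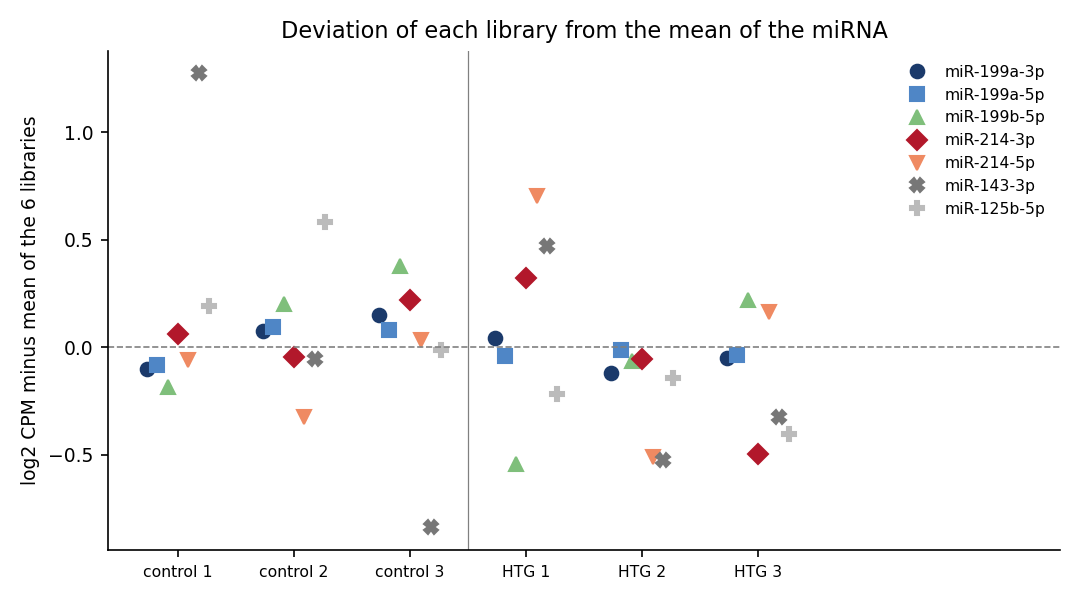
Log2 level of each miRNA minus its own mean over the 6 libraries (vertical axis) for the 5 miR-199 and miR-214 strands (colours) and for miR-143-3p and miR-125b-5p (greys), by library. The miR-199a strands lie within 0.151 of 0 in each library, the miR-214 strands and miR-199b-5p spread in opposite directions in HTG 1, and miR-143-3p spans 1.27 to -0.84 within the controls.

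The miRNAs of neighbouring cell types and of matrix control were read from the same fit, and 0 passed in any list. The miR-29 family, which represses collagen genes, had 6 of 7 members with a fold change above 0 (median log2 0.16), beside 239 of the 488 tested miRNAs. The 7 include both strands of the hairpins, so they are not independent. Values were 0.06 ± 0.14 for miR-29a-3p, 0.21 ± 0.14 for miR-29b-3p, 0.18 ± 0.19 for miR-29c-3p and 0.06 ± 0.24 for miR-29c-5p (SE). The member below 0 was miR-29b-2-5p, at -0.20 ± 0.32. Medians were 0.13 for 8 acinar, 0.12 for 9 leukocyte, -0.03 for 4 endothelial, -0.75 for 4 striated muscle, 0.44 for 4 islet and 0.07 for 5 ductal epithelial miRNAs, beside -0.01 over all tested. The leukocyte median did not hold for the whole list, where 6 were above 0 and 3 below. Leukocyte log2 fold changes ran from -1.11 to 0.91. The lowest was that of miR-223-3p, the most abundant leukocyte miRNA listed, at -1.11 ± 0.52 (SE; adjusted p = 0.996 in edgeR), and its groups overlapped. Of the 4 striated muscle miRNAs, miR-133b-3p and miR-206-3p averaged only 1.12 and 1.34 CPM. The level of miR-1a-3p was 544 CPM in control 1 against 167 to 229 CPM in the other libraries, and miR-133a-3p was also highest in control 1. At an unadjusted p under 0.05 in edgeR there were 2 islet miRNAs and 1 striated muscle miRNA, beside 2.46% of all tested. The acinar, leukocyte, endothelial, ductal and miR-29 lists had none. The islet miRNAs were miR-7a-5p and miR-7b-5p, which belong to 1 family, at 0.82 ± 0.27 and 0.85 ± 0.32 (log2 fold change, SE). The most abundant of the islet list, miR-375-3p, was at 0.05 ± 0.16 and miR-184-3p at -0.32 ± 0.29, so the islet median did not hold for the whole list. The muscle miRNA was miR-133b-3p, at 0.37 to 0.65 CPM in the HTG libraries, near the level that a count of 0 would allow. It passed the low-count filter only through the controls, where it was at 1.28 to 2.16 CPM. Neither its test nor its part in the striated muscle median is therefore read as a result. The summed endothelial level, another stromal compartment, ran from 8023 to 9655 CPM in control and from 8653 to 8938 CPM in HTG. Summed acinar levels ran from 329543 to 448655 CPM in the controls and from 327615 to 544160 CPM in the HTG libraries. Most of each sum was miR-148a-3p, at 413975, 391186 and 281633 CPM in controls 1, 2 and 3. The miR-216a, miR-216b and miR-217 strands were instead highest of the controls in control 3, while miR-802-5p was lowest there. For miR-217-5p the controls stood at 12369, 12205 and 21411 CPM. The part of such shifts in the members' values was not tested.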

How the data were processed

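Trizol-extracted RNA was made into libraries with a NEXTflex kit for small RNA, per the labels' protocols. The submitters' processing notes name Bowtie 1.1.1 and GRCm38. What was done with multi-mapping reads, the miRNA release and the mismatch limit were not given in the sources used here. Per the file headers, the authors deposited whole-number read counts for 1077 mature miRNAs in each library. They deposited TPM values beside them, which were proportional to the counts of the library. Rows with the same count in all 6 libraries and a total of at least 30 numbered 24, in 11 sets, among them miR-199a-3p with miR-199b-3p.

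The 488 miRNAs that passed filterByExpr (minimum count 10, minimum total 15) were fitted with edgeR 4.0.16 in R 4.3.3, with TMM scaling, the quasi-likelihood test and Benjamini-Hochberg adjustment; limma 3.58.1 and DESeq2 1.42.0 were alternatives. The edgeR procedure was first tested on simulated data with a common dispersion and changes far larger than those fitted for the members. That run therefore does not show whether changes of the members' size would be found. A count of 0 would allow 0.137 to 0.387 TMM-scaled CPM (3 counts in a library), for counting error only. Level deviations used log2 CPM with a prior count of 2. The members, the cell type lists and the rule for named miRNAs (members, up to 4 most abundant of a list, the 5 nearest in pattern, the ratio partners) were chosen with earlier results of these data known, and the promoter motifs after the sequence was read. Where the text names fewer than 4 of a list, values are given as medians. The main tests were unpaired, and the labels do not state a pairing. Pairs by library number were used only as an alternative, in the replicate block, the paired ratio tests and the directions within same-numbered libraries. Same-numbered libraries of the 2 groups deviated from their group means together (r = 0.47, 0.19 and 0.25 over 488 miRNAs). Numbers 2 and 3 also correlated across each other (0.21 and 0.23), more than the libraries numbered 2 did (0.19), so the pairing of these numbers is uncertain. Deviations cancel out within a group, so the match of the libraries numbered 1 by itself pushes the values among numbers 2 and 3 up. Those values are therefore no evidence of pairing.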

Additional observations from a re-analysis of the deposited data

How the results depend on the processing

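Of 85 refits of the 5 strands (17 alternatives each), 83 kept the direction and their side of the threshold. The other 2 were single left-out libraries: leaving out 1 library at a time, miR-214-3p ran from -0.31 to 0.056 and miR-214-5p from -0.0024 to 0.54 in log2 fold change, miR-199b-5p from -0.44 to -0.03, and the cause was not tested. No alternative called a member. The replicate block gave -0.08 for miR-199a-3p, -0.06 for miR-199a-5p, -0.26 for miR-199b-5p, -0.15 for miR-214-3p and 0.24 for miR-214-5p; it changed no call, and moved the number of all miRNAs at an unadjusted p under 0.05 from 12 to 27. Called miRNAs of the whole table, none a member, numbered 1 with no low-count filter, 0 to 2 with 1 library left out (2 without control 1) and 4 without both libraries numbered 1. No scaling turned the sign of a member.

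With 1 library left out, the difference in log2 ratio ran from -0.024 to 0.073 for miR-199a-5p over miR-199a-3p, from -0.36 to 0.073 for miR-199b-5p over miR-199a-3p, from -0.0005 to 0.38 for miR-199a-5p over miR-199b-5p, from -0.23 to 0.13 for miR-214-3p over miR-199a-3p, from 0.16 to 0.72 for miR-214-5p over miR-214-3p, from 0.28 to 0.62 for miR-199a-3p over miR-125b-5p and from -0.48 to 0.71 for miR-199a-3p over miR-143-3p. Without both libraries numbered 1 the last was -0.22. The paired form of the ratio tests gave no p below 0.25, the smallest that 3 pairs allow. Depth limits miR-214-5p most, at 58 to 189 counts a library.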
